A study of Homo sapiens with 6 samples.

Results

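RNA levels of 10 genes for fibrinogen chains and other acute-phase secreted proteins were examined in 21NT breast cells. The genes were FGA, FGB and FGG, which encode the 3 chains of fibrinogen, and AGT, CP, C3, SAA1, SAA2, LCN2 and HP. They are 10 of the 20824 genes measured, found by gene symbol. They were chosen by function and with their levels known, since FGB and FGG were among the genes that lay furthest below the control. The comparisons of TBX3iso1 with EV and of TBX3iso2 with EV therefore chose the members, and their differences from EV are given below as a description without a test.

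21NT is a human breast epithelial cell line with features of ductal carcinoma in situ (DCIS). The study asked which transcripts change when TBX3, a T-box transcription factor, is overexpressed. Cells were stably transfected with pcDNA3.1 carrying no insert (EV), TBX3iso1 or TBX3iso2. TBX3iso2 carries an additional stretch within its T-box, the DNA-binding domain. All 3 lines were selected with G418 and grown in serum-containing medium with insulin, EGF and hydrocortisone, a glucocorticoid, and RNA was taken at high confluence. Each line was sequenced in 2 libraries, 6 in all. The resistant colonies of a transfection were pooled, so each condition is a single transfected line. The sources do not say whether the libraries of a line came from separate cultures, so the p-values measure the spread between these libraries, which may be technical.

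The acute-phase response is a change in the secreted proteins of the liver, and of several epithelia, during inflammation. IL-6 acts through STAT3, IL-1 acts through NF-kB, and C/EBP factors drive many of the target genes, while glucocorticoids strengthen the response. Fibrinogen is assembled from pairs of the alpha, beta and gamma chains made by FGA, FGB and FGG, and thrombin turns it into the fibrin of a clot.

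Levels were given as RPKM (reads per length of transcript and per depth of the library), so that genes can be compared per length. The libraries held between 43176600 and 54512400 alignments. TBX3 itself, the transfected gene, was at 8.52 and 8.24 RPKM in EV, 13.1 and 11.4 RPKM in TBX3iso1, and 17.5 and 15.5 RPKM in TBX3iso2, with no overlap between the lines. Its log2 difference from EV was 0.54 in TBX3iso1 and 0.97 in TBX3iso2. By the rule for calls given below, TBX3 was called higher in TBX3iso2 but not in TBX3iso1, at 1.46-fold. The row sums over both isoforms and over the transgene and the endogenous gene. Breast epithelial markers such as KRT8, KRT18 and EPCAM were abundant, and 13 of the 14 markers exceeded 1 RPKM. The sum was 3679 and 3565 RPKM in EV and 2805 to 3541 RPKM in the TBX3 lines, and of 13 markers tested 4 were called lower and 1 higher in each comparison with EV. These were 38.5% of the markers tested, beside 21.5% and 21.2% of all genes. The part of these marker differences in the results below was not tested. The 15 hepatocyte markers in the table summed to between 1.63 and 1.86 RPKM per library, none exceeded 1 RPKM in any library, and ALB was listed at 0 in 4 libraries. The 10 leukocyte markers summed to between 102 and 126 RPKM, mostly LAPTM5 and CD68, while PTPRC, which marks leukocytes as such, was at most 0.0102 RPKM. The 10 fibroblast markers summed to between 7.21 and 12.99 RPKM, and 2 of them, COL1A1 and PDGFRA, exceeded 1 RPKM.

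The 3 fibrinogen genes lie side by side in 50.0 kb of chromosome 4 (GRCh37, the build named hg19 in the labels). FGB spans chr4:155484163-155493959 on the forward strand with 8 exons. FGA spans chr4:155504278-155511894 with 5 exons and FGG spans chr4:155525286-155534119 with 9 exons, both on the reverse strand. The exon numbers are those of the canonical transcript in GENCODE.

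The promoters of these genes are shown because the response is known to act on them directly. Of the 10 members, 5 were matched by symbol in a RefSeq table of promoters (GRCh38.p14), and the 250 bases before the first listed start of the 3 fibrinogen genes follow, 5′ to 3′ on the strand of the gene. They lie at chr4:154590743-154590992 on the reverse strand for FGA, chr4:154562730-154562979 on the forward strand for FGB and chr4:154612657-154612906 on the reverse strand for FGG. Capitals mark every match to TTNNGNAA (a C/EBP motif) or CTGGGA (the core of the IL-6 response element), on either strand.
FGA: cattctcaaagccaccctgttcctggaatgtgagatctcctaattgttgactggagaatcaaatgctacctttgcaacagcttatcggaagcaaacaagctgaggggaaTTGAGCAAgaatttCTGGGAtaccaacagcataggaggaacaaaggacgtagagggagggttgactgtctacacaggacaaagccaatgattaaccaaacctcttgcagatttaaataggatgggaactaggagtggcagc
FGB: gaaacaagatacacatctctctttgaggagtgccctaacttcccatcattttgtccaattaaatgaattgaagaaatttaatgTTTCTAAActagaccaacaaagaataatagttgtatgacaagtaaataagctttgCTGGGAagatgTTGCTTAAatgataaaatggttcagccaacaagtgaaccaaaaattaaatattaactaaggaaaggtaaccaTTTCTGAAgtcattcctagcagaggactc
FGG: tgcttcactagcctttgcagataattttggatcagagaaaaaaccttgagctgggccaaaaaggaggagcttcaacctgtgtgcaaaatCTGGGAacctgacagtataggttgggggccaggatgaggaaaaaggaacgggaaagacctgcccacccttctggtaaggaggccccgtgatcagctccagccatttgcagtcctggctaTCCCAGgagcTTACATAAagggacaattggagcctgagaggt
Each of the 3 promoters held a C/EBP match and a CTGGGA match. Counted from the start, those of FGA lay at -141 to -134 and -127 to -122. Among all 35116 promoters of that length in the table, 33.2% held TTNNGNAA and 28.7% held CTGGGA, so that both motifs are common. These letters are a description of the window, and binding was not measured in these libraries. The study measured TBX3 binding on separate promoter arrays, which were not analysed here.

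Of the fibrinogen chains, FGG was the most abundant in EV, and both FGB and FGG were far lower in the TBX3 lines. FGG, the gamma chain, was at 30.5 and 31.5 RPKM in EV, 0.240 and 0.420 RPKM in TBX3iso1, and 1.05 and 0.740 RPKM in TBX3iso2. Every library of the TBX3 lines was below both EV libraries, and the lines did not overlap. The mean of EV was 31.0 ± 0.737 RPKM (SD, n = 2), and TBX3iso1 held 1.07% and TBX3iso2 2.89% of it, which is 93.9-fold and 34.6-fold lower. In such bulk RNA, less FGG RNA per cell and fewer cells that make it cannot be told apart.

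FGB, the beta chain, was at 3.39 and 3.63 RPKM in EV, 0.0270 and 0.0278 RPKM in TBX3iso1, and 0.154 and 0.120 RPKM in TBX3iso2. As for FGG, the lines did not overlap and TBX3iso1 was the lowest. TBX3iso1 held 0.781% and TBX3iso2 3.91% of the EV mean of 3.51 ± 0.167 RPKM (SD, n = 2), or 128-fold and 25.6-fold less. For the canonical transcript, these values stand for 673 and 570 reads in EV, 5.0 and 5.1 reads in TBX3iso1, and 29 and 19 reads in TBX3iso2, so the fold in TBX3iso1 rests on about 5 reads per library. These read numbers were derived from RPKM, transcript length and alignments, since the table holds no counts.

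FGA, the alpha chain, was the lowest of the 3 in every library, at 0.0914 and 0.0870 RPKM in EV. It was at 0.00619 RPKM in the first TBX3iso1 library and was listed at 0 in the second and in both TBX3iso2 libraries. The EV values stand for about 11 and 8.3 reads. FGA was under the minimum of 0.5 RPKM (mean over the 6 libraries) that a gene needed to be tested, and no fold is given against lines listed at 0. In EV, the level of FGG was thus several times that of FGB per length, and FGA was the lowest.

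**Figure D1:**
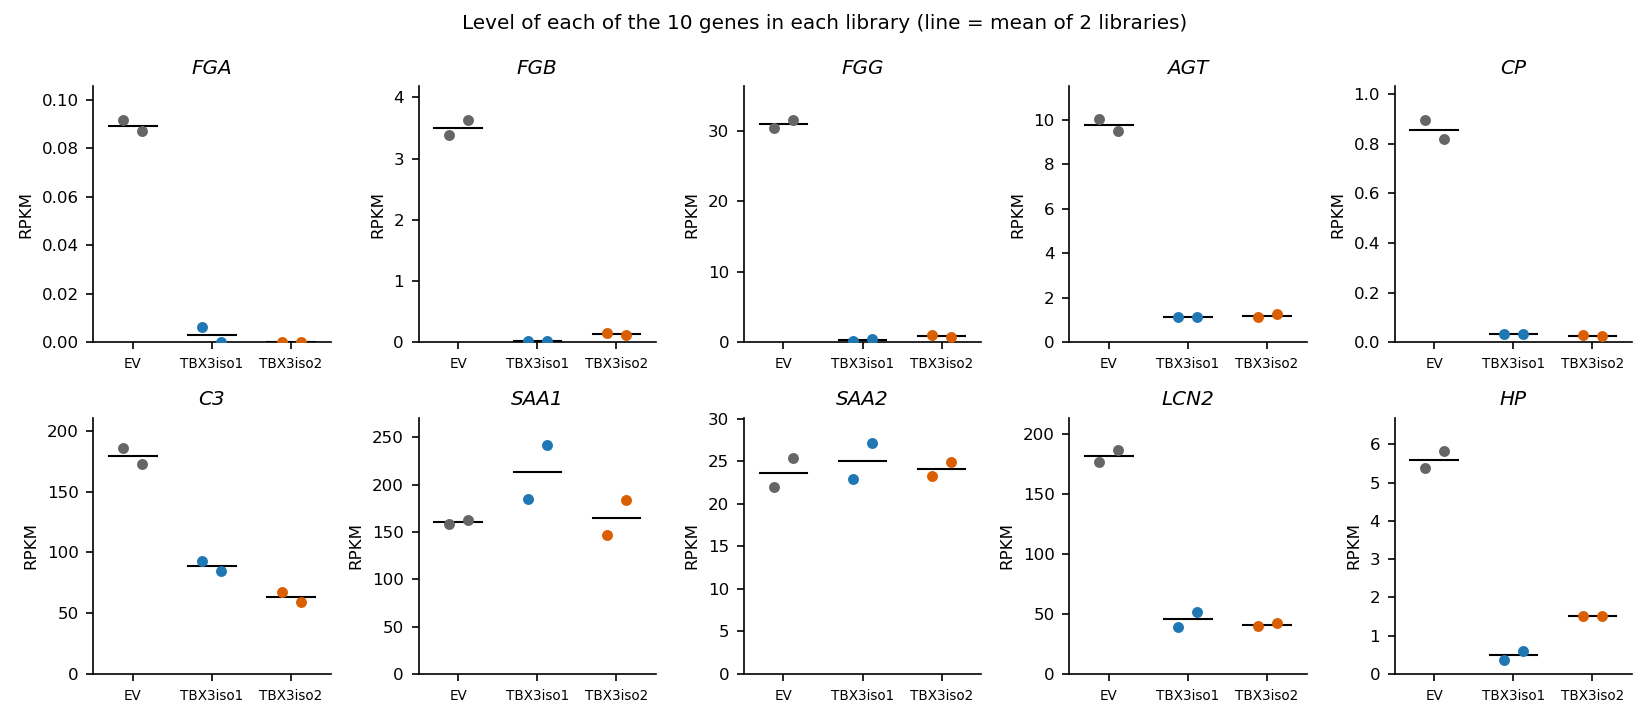
RPKM (vertical axis, from 0, different for each gene) of the 10 genes in each of the 6 libraries (points), by line, with a bar at the mean of the 2 libraries. FGB, FGG, AGT, CP, C3, LCN2 and HP were lower in all 4 libraries of the TBX3 lines than in EV, whereas SAA1 and SAA2 were not.

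The genes next to the fibrinogen cluster did not follow it. Within 500 kb on each side, 4 other genes were in the table, chosen for description after their values were seen, and 2 of them passed the minimum for testing. PLRG1, a splicing factor gene, lies on the reverse strand, and its lowest coordinate is 28.0 kb before that of FGB. It was at 22.1 and 21.3 RPKM in EV, 20.7 and 21.6 RPKM in TBX3iso1, and 20.8 and 21.7 RPKM in TBX3iso2. LRAT, a retinol-esterifying enzyme gene that begins 63.9 kb after the start of FGB, was at 0.925 and 0.977 RPKM in EV, 1.47 and 1.54 RPKM in TBX3iso1, and 1.04 and 1.08 RPKM in TBX3iso2. PLRG1 was not called in either comparison with EV (log2 differences -0.035 and -0.033), and LRAT was called higher in TBX3iso1 (log2 difference 0.61, adjusted p = 0.00739, limma). DCHS2 and RBM46 were below 0.05 RPKM in every library.

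**Figure D2:**
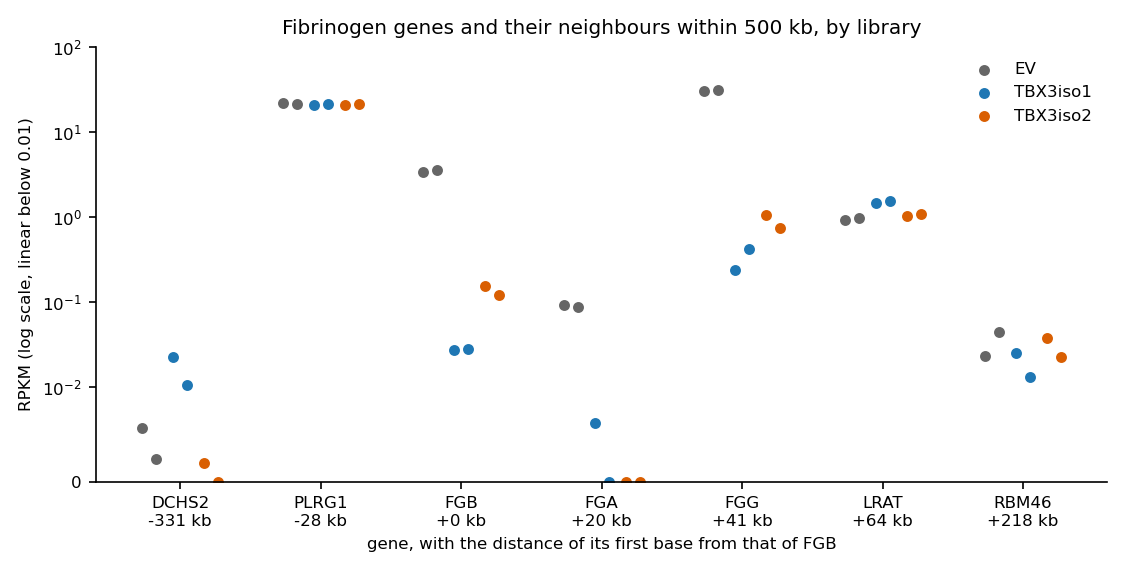
RPKM (vertical axis, logarithmic above 0.01 and linear below) of the fibrinogen genes and of the other genes within 500 kb, with 1 point per library. Genes are ordered by the distance of their lowest coordinate, whatever their strand, from that of FGB. The FGB, FGA and FGG points of the TBX3 lines lie below those of EV, while PLRG1 stays between 20.7 and 22.1 RPKM in all 6 libraries.

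Among the other members, AGT, HP and CP were low in the TBX3 lines, and C3 and LCN2 remained abundant at a lower level. AGT, which encodes angiotensinogen, the precursor of the angiotensin peptides, lies at chr1:230826522-230881322 on the reverse strand. It was at 10.0 and 9.51 RPKM in EV, 1.15 and 1.15 RPKM in TBX3iso1, and 1.12 and 1.26 RPKM in TBX3iso2. Both TBX3 lines were below EV and overlapped each other, at 8.50-fold and 8.21-fold less than the EV mean.

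HP encodes haptoglobin, which binds free haemoglobin, and lies at chr16:72088404-72094954 on the forward strand. It was at 5.39 and 5.82 RPKM in EV, 0.372 and 0.609 RPKM in TBX3iso1, and 1.51 and 1.52 RPKM in TBX3iso2. The 3 lines were separate, with TBX3iso1 11.4-fold and TBX3iso2 3.69-fold below EV. HP shares 96.3% of 1239 aligned transcript bases with its neighbour HPR, which was listed at no more than 8.02e-23 RPKM in any library, so the division of reads between the 2 genes is uncertain.

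CP encodes ceruloplasmin, the copper-carrying ferroxidase of plasma, and lies at chr3:148880197-148939616 on the reverse strand. It was at 0.894 and 0.816 RPKM in EV, 0.0328 and 0.0337 RPKM in TBX3iso1, and 0.0279 and 0.0277 RPKM in TBX3iso2. Both TBX3 lines were below EV, 25.7-fold and 30.8-fold in RPKM, from values that stand for about 5.3 to 7.5 reads per library. CP was under the minimum for testing.

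C3 and LCN2 were among the most abundant members. C3, the central component of complement, lies at chr19:6677715-6730573 on the reverse strand, and was at 186 and 173 RPKM in EV, 93.2 and 84.7 RPKM in TBX3iso1, and 67.1 and 59.2 RPKM in TBX3iso2. The lines did not overlap, and the means were 2.02-fold and 2.84-fold below EV. LCN2, which encodes the siderophore-binding protein lipocalin 2, lies at chr9:130911350-130915732 on the forward strand, and was at 177 and 187 RPKM in EV, 39.5 and 51.5 RPKM in TBX3iso1, and 39.6 and 42.1 RPKM in TBX3iso2. Both TBX3 lines were below EV, by 3.996-fold and 4.46-fold, and overlapped each other.

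The promoters of AGT and LCN2 are shown as the other 2 that were matched, at chr1:230714123-230714372 on the reverse strand and chr9:128149203-128149452 on the forward strand (RefSeq, GRCh38.p14, 250 bases before the start). Capitals mark every match to TTNNGNAA (C/EBP) or to the NF-kB motif (GGG, any 5 bases, CC) on either strand, and the other motifs are in lower case.
AGT: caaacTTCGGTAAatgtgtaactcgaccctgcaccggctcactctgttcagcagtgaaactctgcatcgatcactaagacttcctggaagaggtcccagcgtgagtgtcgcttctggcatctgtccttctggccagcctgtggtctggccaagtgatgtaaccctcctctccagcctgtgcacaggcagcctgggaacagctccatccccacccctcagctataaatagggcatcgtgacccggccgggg
LCN2: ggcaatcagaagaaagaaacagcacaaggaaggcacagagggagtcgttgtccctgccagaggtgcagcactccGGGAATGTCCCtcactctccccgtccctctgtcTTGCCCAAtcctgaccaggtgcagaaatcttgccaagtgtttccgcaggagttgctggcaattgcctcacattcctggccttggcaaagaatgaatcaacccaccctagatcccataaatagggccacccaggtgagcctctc
Each held 1 match to TTNNGNAA. AGT also held 2 matches to CTGGGA, at -157 to -152 and -60 to -55. LCN2 held 2 overlapping matches to the NF-kB motif, at -176 to -167 and -175 to -166, a motif present in 54.4% of all promoters of that length. A T-box half-site (GGTGTGA) was in 0 of the 5 promoters and in 2.76% of all promoters. From separate promoter arrays, the paper lists AGT among genes where both isoforms bound overlapping sites and a T-box element was found.

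The serum amyloid A genes were the exception among the members. SAA1 and SAA2 encode closely related apolipoproteins that rise steeply in plasma during inflammation, and lie at chr11:18287807-18291524 on the forward strand and chr11:18260770-18270215 on the reverse strand. SAA1 was at 158 and 163 RPKM in EV, 184 and 242 RPKM in TBX3iso1, and 147 and 184 RPKM in TBX3iso2. SAA2 was at 21.99 and 25.3 RPKM in EV, 22.9 and 27.2 RPKM in TBX3iso1, and 23.3 and 24.9 RPKM in TBX3iso2. Both SAA1 libraries of TBX3iso1 were above both of EV, and in the other 3 comparisons of a TBX3 line with EV the libraries overlapped. The SAA1 and SAA2 transcripts share 95.4% of 518 aligned bases, so the division of reads between them is uncertain.

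For the fit across genes, 0.1 RPKM was added and values were taken to log2, and the 12805 genes whose mean reached 0.5 RPKM were tested with limma. A gene was called at a Benjamini-Hochberg adjusted p under 0.05 and a fold over 1.5. Of the 10 members, 8 were tested, and 6 were called lower in each comparison with EV, 0 higher, and SAA1 and SAA2 were not called. Over all genes tested, 14.1% were called lower in TBX3iso1 and 12.3% in TBX3iso2, and the members' count is a description, as these comparisons chose them. Called in either direction were 21.5% and 21.2% of all genes, and called higher 7.46% and 8.94%. Without regard to calls, 44.1% of all genes had both TBX3iso1 libraries below both EV libraries and 34.3% above, and for TBX3iso2 the shares were 37.2% and 37.5%. On the log2(RPKM + 0.1) scale, FGG had the lowest difference of all genes tested in TBX3iso1 (-6.21) and the second lowest in TBX3iso2 (-4.98), and FGB ranked 4 (-4.82) and 15 (-3.93) from the lowest. AGT differed from EV by -2.98 and -2.94, HP by -3.30 and -1.82, LCN2 by -2.01 and -2.15, and C3 by -1.01 and -1.51. The added 0.1 RPKM makes these differences smaller than the folds in RPKM for genes as low as FGB. Both comparisons share the EV libraries.

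**Figure D3:**
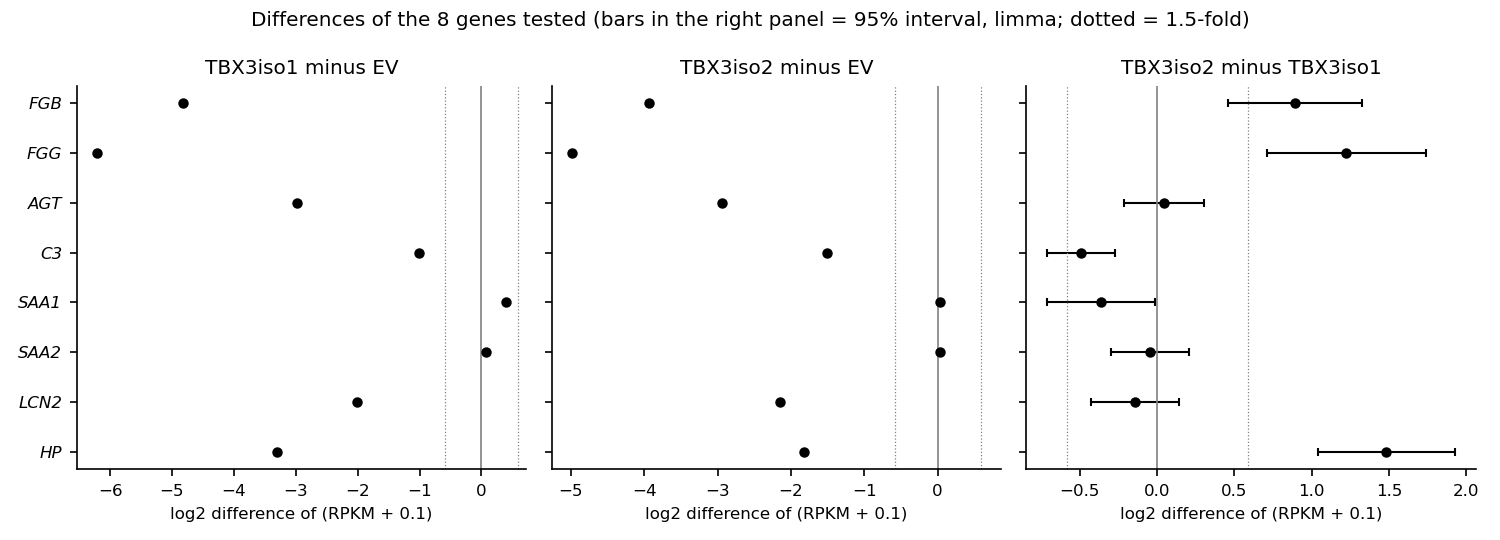
Difference between lines in log2(RPKM + 0.1) (horizontal axis) for the 8 members tested, with the comparisons that chose the members in the left and middle panels and the comparison of the isoforms, with its 95% interval, in the right panel. Dotted lines mark a fold of 1.5. FGB, FGG and HP lie to the right in the right panel, whereas AGT, SAA2 and LCN2 have intervals that include 0.

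The TBX3iso1 and TBX3iso2 lines were then compared with each other, a comparison that the choice of members did not name, although it shares its libraries with those that did. FGB, FGG and HP were higher in TBX3iso2 than in TBX3iso1. TBX3 was also higher in TBX3iso2, by 0.43 on the log2 scale (adjusted p = 0.0275), under the fold needed. These 3 were called higher and 0 lower among the 8 members tested, where 3.47% of all genes were called higher, 2.82% lower and 6.29% in either direction. When the 2 lines were fitted alone, FGB was under the minimum and 1 member, HP, was called. HP was 3.09-fold higher in RPKM, with a log2 difference of 1.48 (SE 0.191, 95% interval 1.04 to 1.93, adjusted p = 0.00315, limma), and was called under all 15 alternative settings. FGG was 2.71-fold higher, with a log2 difference of 1.22 (SE 0.222, 95% interval 0.71 to 1.74, adjusted p = 0.0117). FGB, at a mean of 0.0274 RPKM in TBX3iso1 and 0.137 RPKM in TBX3iso2, passed the minimum for testing only through EV. It was 5.004-fold higher in TBX3iso2, from about 5 reads against 29 and 19 per library, with a log2 difference of 0.89 (SE 0.186, 95% interval 0.46 to 1.33, adjusted p = 0.0197). Both libraries of TBX3iso2 were above both of TBX3iso1 for each of the 3 genes, as for 33.4% of all genes, and the reverse held for 20.1%.

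The FGB call was not stable when libraries were left out. It was lost without either EV library, either TBX3iso1 library or the first TBX3iso2 library. The log2 difference itself stayed between 0.79 and 0.90 in these fits, so the loss was not due to any 1 library. With 1 RPKM added in place of 0.1, FGB differed by 0.15 (adjusted p = 0.223) and FGG by 0.51, under the fold needed. The FGG call was also lost without the minimum level (adjusted p = 0.0681) and when the 2 lines were fitted alone (adjusted p = 0.0503).

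The other members were not called between the isoforms. C3 was lower in TBX3iso2, at 0.711 of the TBX3iso1 mean, with a log2 difference of -0.49 (95% interval -0.71 to -0.27, adjusted p = 0.0144) that was under the fold needed. SAA1 was at 0.776 of TBX3iso1, with a log2 difference of -0.36 (95% interval -0.71 to -0.011, adjusted p = 0.151). The differences of AGT (0.043, interval -0.22 to 0.30), SAA2 (-0.048, interval -0.30 to 0.20) and LCN2 (-0.14, interval -0.43 to 0.14) had adjusted p-values of 0.837, 0.812 and 0.475. CP and FGA were not tested.

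The genes whose profile over the 6 libraries lay closest to the mean profile of FGB and FGG were named by their Euclidean distance in log2(RPKM + 0.1), centred on the mean. They were IP6K3 (0.886), an inositol hexakisphosphate kinase gene, GDF15 (0.990), which encodes a stress-induced secreted factor, SDS (1.02), serine dehydratase, CD36 (1.41), a fatty acid and thrombospondin receptor, and ALDH3B2 (1.51), an aldehyde dehydrogenase. GDF15 was at 72.6 and 84.0 RPKM in EV, 2.57 and 2.96 RPKM in TBX3iso1, and 3.08 and 4.06 RPKM in TBX3iso2. As the choice by profile implies, all 5 were lower in each library of the TBX3 lines than in EV. None was called between the isoforms. That says little for IP6K3, SDS and CD36, which were at most 0.215 RPKM in the TBX3 lines and passed the minimum only through EV.

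The rest of the acute-phase pathway was read from 10 lists of 288 distinct genes other than the members, of which 262 were in the table and 170 were tested. In TBX3iso1, 23 were called higher and 40 lower than in EV, or 37.1% of those tested against 21.5% of all genes tested. In TBX3iso2, 26 were called higher and 45 lower, or 41.8% against 21.2% of all genes. The median log2 difference of these genes was -0.11 and -0.19, beside -0.051 and -0.0021 for all genes tested. The lists were drawn up with earlier results of these data known, and their counts are descriptions. The same holds for the adjusted p-values against EV of genes named from them for the size of their change.

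Of 19 other positive acute-phase genes tested, 10 were called lower in each TBX3 line, and 3 were called higher in TBX3iso1 and 1 in TBX3iso2. Among all genes, 14.1% and 12.3% were called lower and 7.46% and 8.94% higher. The median log2 difference was -0.60 in both lines. CHI3L1, a chitinase-like secreted protein, was at 6.99 and 7.05 RPKM in EV. It fell to 0.307 and 0.535 RPKM in TBX3iso1 and 0.172 and 0.253 RPKM in TBX3iso2 (log2 differences -3.81 and -4.52). APCS, which encodes serum amyloid P component, fell from 6.68 and 6.74 RPKM to 0.526 and 0.677 RPKM in TBX3iso1 and 0.157 and 0.437 RPKM in TBX3iso2. PTX3, a pentraxin of the same family made outside the liver, was at 5.21 and 5.92 RPKM in EV. It rose to 23.4 and 24.9 RPKM in TBX3iso1 and 36.8 and 32.2 RPKM in TBX3iso2 (log2 differences 2.10 and 2.61, adjusted p = 9.06e-06 and 4.4e-06, limma). The members of a single protein family thus went in opposite directions.

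Between the isoforms, the largest differences in that list were those of PI3, the elastase inhibitor elafin, and IL1RN, the IL-1 receptor antagonist. PI3 was at 3.96 and 3.31 RPKM in EV, 7.78 and 9.19 RPKM in TBX3iso1, and 2.46 and 2.93 RPKM in TBX3iso2 (TBX3iso2 minus TBX3iso1 -1.62, adjusted p = 0.000612). IL1RN was at 0.931 and 0.800 RPKM in EV, 1.67 and 2.05 RPKM in TBX3iso1, and 0.806 and 0.728 RPKM in TBX3iso2 (-1.17, adjusted p = 0.00408). Both were higher in TBX3iso1 than in each of the other lines.

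Of the negative acute-phase genes, plasma proteins that decline in inflammation, 1 of 11 could be tested. RBP4, the retinol carrier, was at 1.90 and 2.56 RPKM in EV, 1.79 and 2.06 RPKM in TBX3iso1, and 0.733 and 0.781 RPKM in TBX3iso2. It was called lower in TBX3iso2 alone (log2 difference -1.43, adjusted p = 0.000473), and lower there than in TBX3iso1 (-1.24, adjusted p = 0.00383).

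Most of the complement genes tested were lower. Of 12, 8 were called lower, 0 higher and 4 not in each line, where 14.1% and 12.3% of all genes were called lower, with medians of -0.93 and -0.92. CFI, the protease that inactivates C3b, was at 4.38 and 5.27 RPKM in EV. It fell to 0.571 and 0.531 RPKM in TBX3iso1 and 0.480 and 0.377 RPKM in TBX3iso2 (log2 differences -2.91 and -3.22). CFB, the protease subunit of the alternative pathway C3 convertase, fell from 2.26 and 2.76 RPKM to 0.597 and 0.678 RPKM and to 0.796 and 0.641 RPKM. The count was 4 in each comparison when the minimum mean was set at 2 RPKM, and 14 and 11 when no minimum was set.

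C1S and C1R, the proteases of the C1 complex, separated the isoforms. C1S was at 4.39 and 4.28 RPKM in EV, 4.06 and 3.58 RPKM in TBX3iso1, and 0.736 and 0.764 RPKM in TBX3iso2 (TBX3iso2 minus TBX3iso1 -2.20, adjusted p = 6.53e-05). C1R was at 6.46 and 7.11 RPKM in EV, 4.25 and 4.72 RPKM in TBX3iso1, and 1.01 and 1.11 RPKM in TBX3iso2 (-1.98, adjusted p = 0.000108). C1R was also called lower in TBX3iso1 than in EV by -0.59, a call lost without the second EV library (-0.52) or the first TBX3iso1 library (-0.51).

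**Figure D4:**
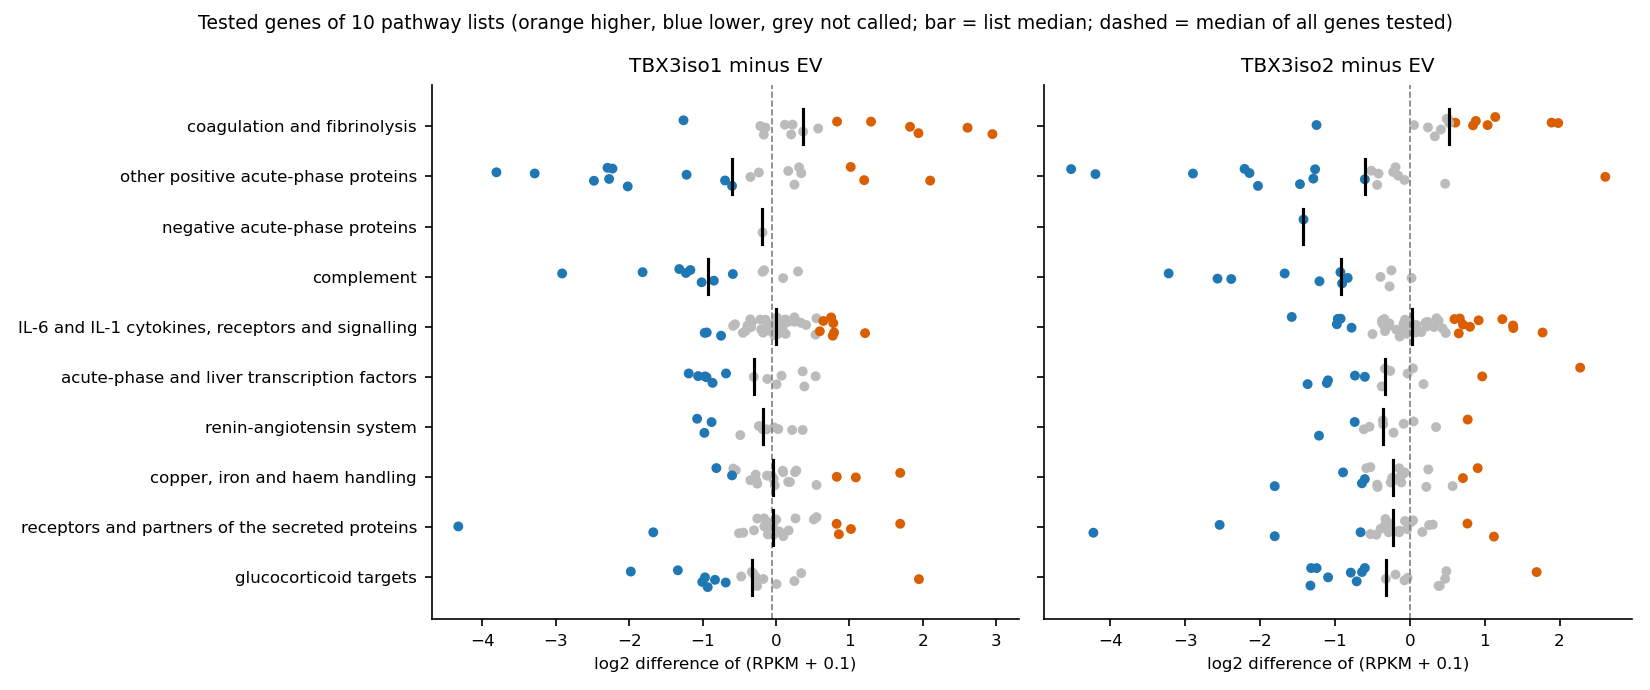
Difference from EV in log2(RPKM + 0.1) (horizontal axes) of the tested genes of 10 pathway lists, with 1 point per gene, coloured by call, a bar at the median of a list and a dashed line at the median of all genes tested. The complement list has 8 genes called lower and 0 called higher in each panel, and the coagulation and fibrinolysis list has 6 and 7 called higher and 1 called lower.

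Coagulation and fibrinolysis genes, which act on fibrinogen and fibrin, were more often called higher than lower. Of 15 tested, 6 were called higher, 1 lower and 8 not in TBX3iso1, and 7 higher, 1 lower and 7 not in TBX3iso2, where 7.46% and 8.94% of all genes were called higher, with medians of 0.37 and 0.53. PLAU, the plasminogen activator urokinase, rose from 25.6 and 28.4 RPKM in EV to 98.9 and 109 RPKM in TBX3iso1 and 104 and 97.3 RPKM in TBX3iso2 (log2 differences 1.94 and 1.89, adjusted p = 8.34e-06 and 1e-05).

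SERPINB2, a serpin that inhibits plasminogen activators, was at 0.125 and 0.119 RPKM in EV, 1.04 and 1.51 RPKM in TBX3iso1, and 0.303 and 0.295 RPKM in TBX3iso2 (TBX3iso2 minus TBX3iso1 -1.77, adjusted p = 0.00276). Its call against EV in TBX3iso2 (0.84) was lost without either EV library (adjusted p = 0.0677 and 0.0818). PROCR, the endothelial protein C receptor, was at 5.83 and 5.72 RPKM in EV, 6.21 and 6.39 RPKM in TBX3iso1, and 12.5 and 13.2 RPKM in TBX3iso2, and was called between the isoforms (1.02, adjusted p = 0.000416). PROS1, which encodes the anticoagulant protein S, was the gene called lower, from 6.25 and 6.71 RPKM in EV to 2.76 and 2.54 RPKM and to 2.81 and 2.54 RPKM.

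Cytokine and receptor genes were called in both directions. Of 46 tested genes for IL-6 and IL-1 family cytokines, receptors and signalling, 7 were called higher and 3 lower in TBX3iso1, and 10 higher and 5 lower in TBX3iso2, with medians of -0.0019 and 0.027. The share called was 21.7% in TBX3iso1 and 32.6% in TBX3iso2, beside 21.5% and 21.2% of all genes. IL6 was at 1.62 and 1.93 RPKM in EV, 2.66 and 2.57 RPKM in TBX3iso1, and 5.71 and 3.96 RPKM in TBX3iso2. Both TBX3 lines were above EV, and the gene was called in TBX3iso2 (log2 difference 1.38, adjusted p = 0.000714) but not in TBX3iso1 (0.54, adjusted p = 0.0401). The call between the isoforms (0.84, adjusted p = 0.0203) was lost without either TBX3iso1 library (adjusted p = 0.0549 and 0.0642) and without the first TBX3iso2 library (0.58).

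The receptor chains and the signalling factor showed smaller differences. IL6R had log2 differences of -0.14 and -0.33 and the shared receptor chain IL6ST -0.044 and -0.34, with adjusted p-values from 0.0818 to 0.831. STAT3 was at 34.0 and 31.2 RPKM in EV, 23.7 and 20.6 RPKM in TBX3iso1, and 26.6 and 23.9 RPKM in TBX3iso2. These were log2 differences of -0.56 (adjusted p = 0.003) and -0.37 (adjusted p = 0.0174), under the fold needed. Without the second EV library or the first TBX3iso1 library, STAT3 was called lower in TBX3iso1 (-0.62 and -0.66). SOCS3, a STAT3 target that feeds back on the receptor, had log2 differences of 0.12 (adjusted p = 0.377) and 0.36 (adjusted p = 0.0289) and was not called.

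Among the other genes of that list, RELB, a subunit of NF-kB, rose from 4.15 and 3.82 RPKM in EV to 6.80 and 7.14 RPKM in TBX3iso1 and 9.52 and 9.52 RPKM in TBX3iso2. PIM1, a kinase gene that STAT factors induce, fell from 11.5 and 12.6 RPKM to 6.40 and 6.01 RPKM and to 4.19 and 3.75 RPKM (log2 differences -0.94 and -1.58, adjusted p = 0.000286 and 2.96e-05). SOCS2 was at 1.58 and 1.16 RPKM in EV, 2.12 and 2.24 RPKM in TBX3iso1, and 3.57 and 3.83 RPKM in TBX3iso2. Its call in TBX3iso1 (0.64) was lost without the second EV library (adjusted p = 0.0821) or the second TBX3iso1 library. IL11 and IL1A, cytokines of the IL-6 and IL-1 families, differed most between the isoforms, by 2.11 (adjusted p = 0.000356) and -1.02 (adjusted p = 0.00304).

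The C/EBP genes were lower in both TBX3 lines. CEBPB, the C/EBP factor long known as a mediator of IL-6 action, fell from 105 and 104 RPKM in EV to 46.8 and 44.9 RPKM in TBX3iso1 and 46.6 and 50.6 RPKM in TBX3iso2 (log2 differences -1.19 and -1.11, adjusted p = 3.25e-05 and 4.56e-05). CEBPD fell from 23.0 and 22.6 RPKM to 12.02 and 11.2 RPKM and to 14.7 and 15.3 RPKM (-0.97 and -0.60, adjusted p = 7.26e-05 and 0.000597). CEBPA fell from 8.16 and 7.77 RPKM to 5.17 and 4.71 RPKM and to 4.21 and 5.37 RPKM (-0.68 and -0.73, adjusted p = 0.00405 and 0.00279). Without the first TBX3iso2 library, the TBX3iso2 differences of CEBPD (-0.57) and CEBPA (-0.56) were under the fold needed. Whether these levels have a part in those of the fibrinogen genes was not tested.

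Of 13 tested acute-phase and liver transcription factors, including the C/EBP genes, 6 were called lower and 0 higher in TBX3iso1, and 5 lower and 2 higher in TBX3iso2, TBX3 being 1 of the 2. The share called was 46.2% and 53.8%, beside 21.5% and 21.2% of all genes. RXRA, a nuclear receptor partner, fell from 15.7 and 14.4 RPKM in EV to 7.57 and 6.75 RPKM and to 5.77 and 5.77 RPKM. FOXA1, a pioneer factor of liver and luminal breast epithelium, was called lower in TBX3iso1 (-0.86, adjusted p = 0.000152) and not in TBX3iso2 (-0.33, adjusted p = 0.0109). ATF3, a stress-response factor, was at 14.5 and 7.46 RPKM in TBX3iso2 and at most 2.84 RPKM elsewhere, and was called between the isoforms (1.89, adjusted p = 0.00443). The liver factor HNF4A was at most 0.0224 RPKM in every library and was not tested.

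**Figure D5:**
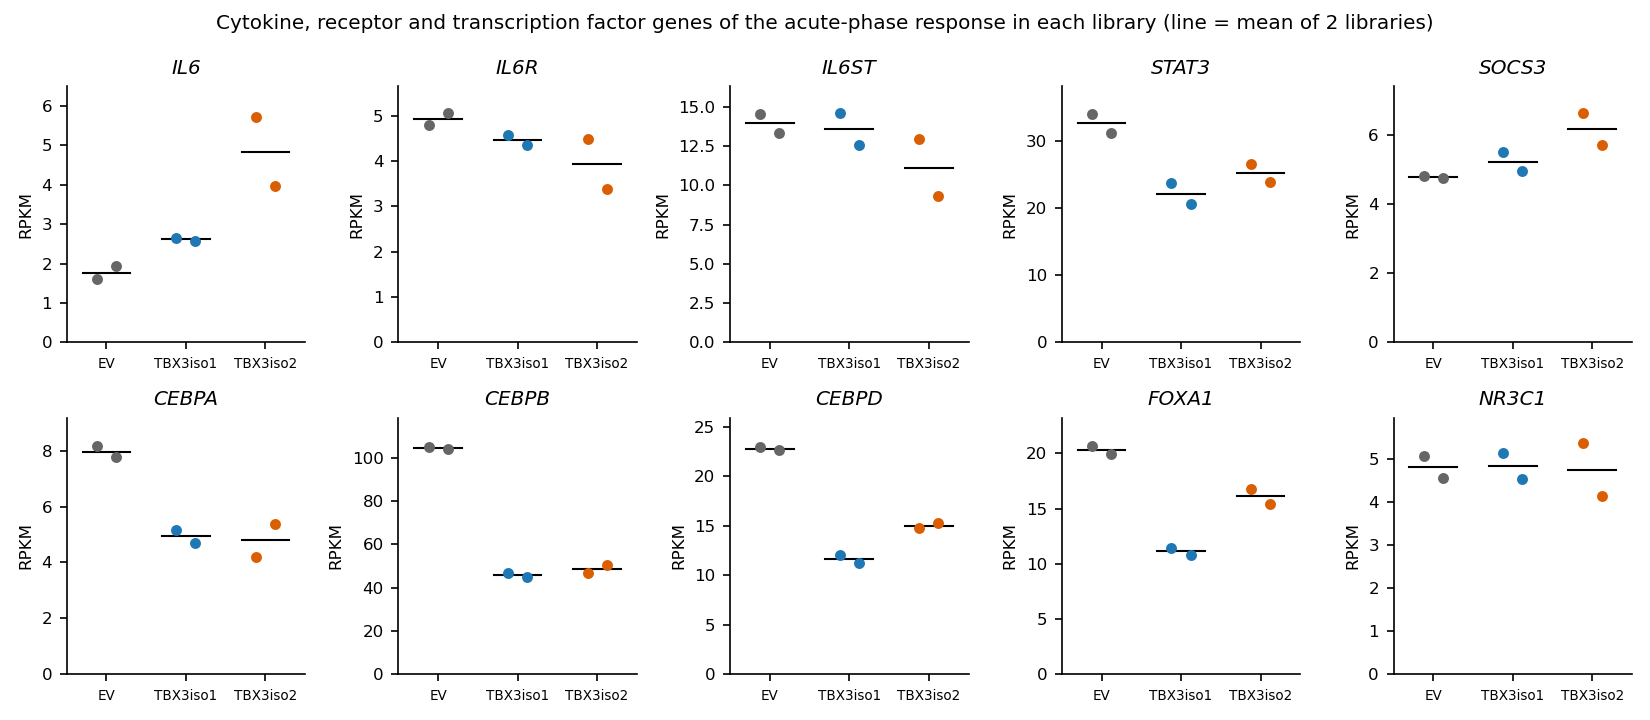
RPKM (vertical axis, from 0, different for each gene) of 10 cytokine, receptor and transcription factor genes of the acute-phase response in each of the 6 libraries (points), by line, with a bar at the mean of the 2 libraries. CEBPA, CEBPB and CEBPD lie below EV in all 4 libraries of the TBX3 lines, IL6 lies above EV, and NR3C1 overlaps.

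Hydrocortisone was present in all 3 lines, and glucocorticoid-responsive genes were read as a further list. NR3C1, the glucocorticoid receptor gene, was at 5.07 and 4.55 RPKM in EV, 5.14 and 4.54 RPKM in TBX3iso1, and 5.36 and 4.14 RPKM in TBX3iso2, with log2 differences of 0.0075 and -0.028. Of 17 glucocorticoid targets tested, 1 was called higher and 7 lower in TBX3iso1, and 1 higher and 8 lower in TBX3iso2, with medians of -0.33 and -0.32. Over all genes, 14.1% and 12.3% were called lower and 7.46% and 8.94% higher. METTL7A fell from 10.4 and 10.3 RPKM in EV to 2.67 and 2.45 RPKM and to 4.46 and 4.19 RPKM, and was 0.73 higher on the log2 scale in TBX3iso2 than in TBX3iso1 (adjusted p = 0.00298). KLF9, a Krüppel-like factor, fell from 8.99 and 8.99 RPKM to 3.54 and 3.46 RPKM and to 3.97 and 3.17 RPKM. ANGPTL4, a secreted inhibitor of lipoprotein lipase, was the gene called higher, from 30.3 and 25.3 RPKM to 103 and 111 RPKM and to 82.3 and 98.2 RPKM. NFKBIA, the inhibitor of NF-kB, was called between the isoforms (0.71, adjusted p = 0.00258) and in neither comparison with EV.

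The remaining lists held the proteins that act with the members. Of 11 tested genes of the renin-angiotensin system around AGT, 3 were called lower and 0 higher in TBX3iso1, and 2 lower and 1 higher in TBX3iso2. The share called was 27.3% in each line, beside 21.5% and 21.2% of all genes. CTSD, the protease cathepsin D, fell from 1138 and 1111 RPKM in EV to 518 and 550 RPKM and to 460 and 512 RPKM (log2 differences -1.07 and -1.21, adjusted p = 0.000343 and 0.000198). CTSA, cathepsin A, was called lower in TBX3iso2 than in TBX3iso1 (-0.61, adjusted p = 0.00269), which was lost without the second TBX3iso1 or the first TBX3iso2 library (-0.56 in each). With no minimum level, the list had 5 and 6 genes called.

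Of 23 tested genes of copper, iron and haem handling, the field of CP, HP and LCN2, 3 were called higher and 2 lower in TBX3iso1, and 2 higher and 4 lower in TBX3iso2. These were 21.7% and 26.1% of the list, beside 21.5% and 21.2% of all genes. STEAP3, an endosomal ferrireductase, rose from 15.4 and 14.6 RPKM in EV to 27.0 and 26.3 RPKM and to 25.0 and 24.1 RPKM. ATP7A, a copper pump, had log2 differences of -0.81 and -0.64, calls that were lost without the first EV library (adjusted p = 0.0726 and 0.145). Without the second EV library or the second TBX3iso2 library, the TBX3iso2 call was lost as well (adjusted p = 0.0542 and 0.0864). MMP9, the gelatinase that binds lipocalin 2, was at 2.65 and 2.05 RPKM in EV, 7.64 and 7.88 RPKM in TBX3iso1, and 1.99 and 1.99 RPKM in TBX3iso2 (TBX3iso2 minus TBX3iso1 -1.91, adjusted p = 0.000228). LRP1, the haem-haemopexin receptor, was lower in TBX3iso2 than in TBX3iso1 (-1.77, adjusted p = 0.00148).

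Of 25 tested receptors and partners of the secreted proteins, 4 were called higher and 2 lower in TBX3iso1, and 2 higher and 4 lower in TBX3iso2. That is 24% in each line, near the 21.5% and 21.2% of all genes called. CD36, which also binds serum amyloid A, was at 2.67 and 3.08 RPKM in EV. It fell to 0.0542 and 0.0418 RPKM in TBX3iso1 and 0.0359 and 0.0856 RPKM in TBX3iso2 (log2 differences -4.33 and -4.23). FPR1, a formyl peptide receptor, fell from 8.92 and 9.60 RPKM to 2.32 and 3.46 RPKM and to 1.47 and 1.55 RPKM. Its call between the isoforms (-0.87, adjusted p = 0.0164) was lost without either EV library (adjusted p = 0.0512 and 0.0508). TLR2 rose from 2.63 and 2.99 RPKM to 5.21 and 5.10 RPKM and to 6.70 and 5.79 RPKM. ITGAV, an integrin subunit that binds fibrinogen, was higher by 1.02 and 0.77, and the TBX3iso2 call was lost without the second EV library (adjusted p = 0.0626) or the first TBX3iso2 library (0.52).

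Of the markers of other cell types, CD14 and PDGFRA were also lower in both TBX3 lines than in EV. PDGFRA was by far the lowest in TBX3iso2, unlike FGB, FGG and HP, which were lowest in TBX3iso1. The part of these markers in the results was not tested. The hepatocyte sum stayed under 1.86 RPKM in every library while FGG alone stood at 30.5 and 31.5 RPKM in EV. Of 4 leukocyte markers tested, CD14, which is also an acute-phase gene, was called lower in both TBX3 lines, from 10.7 and 9.44 RPKM in EV to 2.22 and 2.60 RPKM and to 2.24 and 2.56 RPKM. PDGFRA, of the fibroblast list, was at 8.08 and 7.98 RPKM in EV, 3.63 and 3.28 RPKM in TBX3iso1, and 0.0111 and 0.0133 RPKM in TBX3iso2. COL1A1, of the same list, was higher in both TBX3 lines (log2 differences 0.77 and 0.70).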

How the data were processed

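Stranded mRNA libraries of 21NT cells were read as paired ends (Illumina HiSeq). The authors mapped the reads with TopHat (Galaxy, hg19), keeping several alignments per read, and made the deposited RPKM values with Partek Genomics Suite. Tool versions and the gene annotation were not given in the sources used here. How reads that fit several transcripts were assigned was not stated either. The table holds RPKM and the alignments of each library (43176600 to 54512400, median 50571450) but no counts, so no counting interval was computed.

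Values were taken to log2 after adding 0.1 RPKM. Genes whose mean over the 6 libraries reached 0.5 RPKM, 12805 of 20824, were fitted with limma 3.58.1 in R 4.3.3, with 1 mean per line, empirical Bayes with a trend and Benjamini-Hochberg adjustment, and called where the adjusted p was below 0.05 and the fold above 1.5. Simulated data were used to test the model. With 2 libraries per line, an exact permutation test cannot give a p below 0.333. Between the libraries of EV, TBX3iso1 and TBX3iso2, log2 values differed with an SD of 0.182, 0.242 and 0.273.

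The members and lists were chosen with earlier results of these data known. Besides the 10 members, regulators (IL6, IL6R, IL6ST, STAT3, SOCS3, CEBPA, CEBPB, CEBPD, HNF4A, FOXA1, NR3C1 and TBX3) were named whatever their values. From each list, the 2 genes with the largest mean rise and the 2 with the largest mean fall among those called alike against EV were named, and the 2 with the largest called difference between the isoforms. The 5 genes with the profile most like FGB and FGG were named too. A few genes named by these rules are left out here. Positions are from GENCODE on GRCh37 and promoters from RefSeq on GRCh38.p14. Alternatives were other added values, minimum levels, scalings and models, and each library left out.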

Additional observations from a re-analysis of the deposited data

How the results depend on the processing

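The comparisons with EV chose the members, so their counts under the 15 alternatives are a description. FGB was not tested with the minimum set at 2 RPKM, nor between the isoforms when those lines were fitted alone. The number of members called against EV was 6 to 7 in TBX3iso1 and 6 to 6 in TBX3iso2 when single libraries were left out, and 5 to 8 in each under the other alternatives. Without the first TBX3iso1 library, SAA1 was called higher in TBX3iso1 (0.59). Between the isoforms, the number called was 1 with 1 RPKM added, 1 when the 2 lines were fitted alone, and 2 to 3 when single libraries were left out.

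Directions changed in differences close to 0. Against EV with single libraries left out, SAA2 ranged from -0.045 to 0.20 in TBX3iso1 and from -0.071 to 0.13 in TBX3iso2, and SAA1 from -0.13 to 0.19 in TBX3iso2. SAA2 was below 0 in TBX3iso1 without the first EV library (-0.024) or the second TBX3iso1 library, and in TBX3iso2 without the first EV library or the second TBX3iso2 library (-0.018). With quantile normalization, SAA1 was at -0.083 and SAA2 at -0.029 in TBX3iso2. Between the isoforms, AGT was at -0.0035 with median-ratio scaling. With single libraries left out it ranged from -0.034 to 0.12, SAA2 from -0.17 to 0.076 (0.001 without the first TBX3iso2 library) and LCN2 from -0.34 to 0.047. With quantile normalization, IL6 (0.75), TBX3 (0.63) and STAT3 (-0.59) were called in TBX3iso1 and CEBPA (-0.57) was not. The cause was not tested.

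Pathway genes called ranged from 59 to 64, 63 to 73 and 26 to 37 in the 3 comparisons when single libraries were left out, beside 63, 71 and 32. Of 450 counts per list under the alternatives, an analysis added after seeing the data, 23 differed by over 1.5 times. Calls over all genes fell from 805 to 419 between the isoforms with 1 RPKM added, and from 2757 and 2720 to 1812 and 1870 against EV. Of the genes called, 65.4%, 57.9% and 44.8% were lower in the 3 comparisons, and 51.0%, 50.4% and 55.3% with quantile normalization (53.4%, 53.3% and 55.6% with median-ratio scaling).

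The labels number the libraries of each line, but with 2 numbers they do not establish pairs. The deviations of same-numbered libraries correlated at 0.22, 0.114 and 0.499. With the replicate block, 2838, 2795 and 900 genes were called, and the members called were 6, 6 and 3, as without it. CHI3L1 (-0.71) and APCS (-0.91) were called lower in TBX3iso2 than in TBX3iso1 with the block. Neither was called in the main fit (adjusted p = 0.0833 and 0.0944, limma). Their means were 0.421 and 0.602 RPKM in TBX3iso1 and 0.2125 and 0.297 RPKM in TBX3iso2. Like FGB, both passed the minimum only through EV. The limits are the 2 libraries per line, the single transfected line per condition, the division of reads between near-identical genes, and the few reads behind FGA, FGB and CP in the TBX3 lines.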

Other observations

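Further acute-phase genes of the lists, chosen after their values were seen, went with the members. S100A8 and S100A9, the calprotectin subunits, fell from 86.8 and 636 RPKM (means of 2 libraries) in EV to 18.5 and 276 RPKM in TBX3iso1 and 11.6 and 261 RPKM in TBX3iso2. SERPINA3, which encodes alpha-1-antichymotrypsin, fell from 29.1 RPKM to 5.13 and 6.51 RPKM, and LRG1, a leucine-rich glycoprotein of plasma, from 36.1 RPKM to 7.28 and 13.01 RPKM. LRG1 was higher in TBX3iso2 than in TBX3iso1 by 0.83 on the log2 scale (adjusted p = 0.000537, limma), as FGB, FGG and HP were. Of the 19 other positive acute-phase genes tested, 1 was called higher and 3 lower in that comparison. SERPINA1, alpha-1-antitrypsin, was at 52.6, 65.5 and 50.1 RPKM and was not called against EV, like SAA1 and SAA2.

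Some complement and acute-phase genes, chosen after their values were seen, were under the minimum for testing but were lower in every library of the TBX3 lines than in EV. Of all genes tested, 44.1% had both TBX3iso1 libraries below both EV libraries, and 37.2% had both TBX3iso2 libraries below. Untested genes of the lists that overlapped EV or lay above it were not counted. C4A was at 0.928 RPKM in EV, 0.0742 RPKM in TBX3iso1 and 0.0525 RPKM in TBX3iso2, and C4B, a near-identical copy whose reads cannot be divided with certainty, at 0.939, 0.0422 and 0.0379 RPKM. ITIH4, an inhibitor heavy chain of plasma, was at 0.701, 0.166 and 0.373 RPKM. CRP, the classical acute-phase protein of the liver, was at 0.0673 and 0.0854 RPKM in EV and at most 0.0121 RPKM in the TBX3 lines.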
